A study of Mus musculus with 12 samples.

Results

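Basophilic erythroblasts of mice on a selenium-deficient diet were compared with basophilic erythroblasts of mice on a selenium-adequate diet. The comparison rests on the 6 arrays whose titles name basophilic erythroblasts, 3 per diet, of 12 arrays in the series. The other 6 arrays are of proerythroblasts, again 3 per diet, and here they serve to estimate the spread and to test whether the diet effect differed between the stages. Male mice of both diets received phenylhydrazine, and their spleen cells were sorted 3 days later. Either diet had been given for 3 months beforehand. Each array was labelled from 5 ng of total RNA. The strain and age of the mice, the sort gate and the number of mice behind an array are not given in the sources used here. Values are log2 expression values, so that a difference of 1 is a doubling.

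Selenium acts mainly through selenoproteins, enzymes that carry selenocysteine, a selenium-containing amino acid inserted at a recoded stop codon. They include the glutathione peroxidases, which reduce peroxides at the expense of glutathione, and the thioredoxin reductases. Developing red cells handle large amounts of iron, heme and oxygen and depend on such enzymes. Phenylhydrazine oxidises haemoglobin and destroys red cells, and the mouse spleen then makes erythroblasts by stress erythropoiesis. The basophilic erythroblast follows the proerythroblast. It still divides, makes ribosomes and builds up haemoglobin.

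Replicate 2 of both diets stood apart from the other basophilic arrays. The median of the background features was 3.63, 4.19 and 3.80 in adequate replicates 1, 2 and 3, and 3.73, 4.70 and 3.75 in deficient replicates 1, 2 and 3. The interquartile range of all features was 2.25 and 2.17 in adequate and deficient replicate 2, and from 2.43 to 2.49 in the other 4 arrays. Results are therefore given with all arrays and without replicate 2 of both diets, which leaves 2 arrays per diet and takes the spread from 10 arrays. The description of deficient replicate 3 names proerythroblasts, against its title. Over all features it correlated at r = 0.986 with deficient basophilic replicate 1 and at 0.91 with deficient basophilic replicate 2. With the deficient proerythroblast arrays it correlated at 0.962 to 0.969, and deficient basophilic replicate 1 at 0.958 to 0.969. These correlations alone do not settle the stage of deficient replicate 3, and results are also given without it. The stage label was checked on markers. Alas2, the erythroid enzyme that starts heme synthesis, lay at 12.52 to 12.88 in the basophilic arrays and at 9.53 to 11.78 in the proerythroblast arrays. The progenitor gene Cdk6 lay at 6.01 to 6.81 against 8.28 to 9.86, whereas Gata2, another progenitor gene, was higher in the basophilic arrays (7.16 to 8.03 against 6.95 to 7.15). Among proerythroblasts, Alas2 lay at 9.53 to 10.19 on the adequate and at 11.47 to 11.78 on the deficient diet. Cdk6 lay there at 9.81 to 9.86 against 8.28 to 8.68. Both were thus nearer the basophilic level in deficient proerythroblasts, whereas Gata2 overlapped between the diets (7.03 to 7.15 against 6.95 to 7.08). Nothing in the labels says that the arrays of a group came from separate mice, so p-values measure the spread between these arrays, which may be technical.

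**Figure D1:**
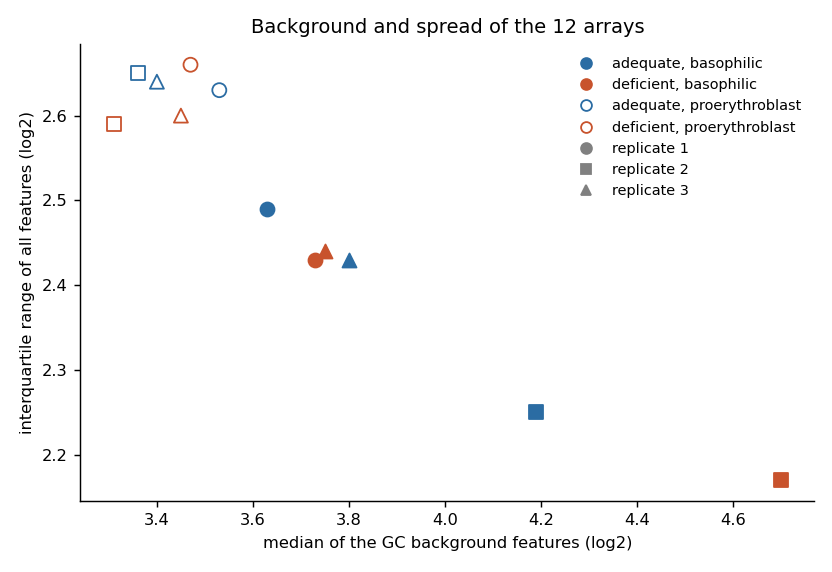
Median of the background features (x axis, log2) against the interquartile range of all features (y axis, log2) for each of the 12 arrays. Colour gives the diet, filled symbols the basophilic and open symbols the proerythroblast stage, and the symbol's shape the replicate number. The basophilic replicate 2 arrays lie at the lower right, at a background of 4.19 and 4.70 and a range of 2.25 and 2.17.

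With all arrays, 4 of 20103 genes passed an adjusted p of 0.05 (limma), 2 higher and 2 lower in deficient basophilic erythroblasts, which is 0.0199% of the genes tested and 0.00995% in each direction. At an unadjusted p under 0.05 there were 1301 genes (6.47%). Without replicate 2, 417 genes passed (2.07%), 273 higher (1.36%) and 144 lower (0.716%). With deficient replicate 3 alone left out, none passed by limma, and 1856 had an unadjusted p under 0.05 (9.23%). Basophilic arrays of the same number deviated together from their group means, but so did replicates 1 and 3 across numbers, with replicate 2 apart. The labels state no pairing. With the replicate number as a block over both stages, 8 genes were higher (0.0398%) and 10 lower (0.0497%), and 1760 had an unadjusted p under 0.05 (8.75%). With a block within each stage 288 genes passed (1.43%), 100 higher (0.497%) and 188 lower (0.935%), and "the block" below means that fit. Of the 273 genes higher without replicate 2, 75 were also called higher with that block, and of the 144 lower genes 77 were also called lower. In all that makes 152 genes (0.756%). The 417 calls rest on few arrays. When deficient replicate 3 was left out as well, 39 of the 273 and 14 of the 144 were still called. The corresponding numbers were 113 and 29 without deficient replicate 1, 72 and 19 without adequate replicate 1, and 60 and 29 without adequate replicate 3. In each of these 4 fits, 36 of the higher and 10 of the lower genes were called. These shares of all genes are the background for the list counts below. With all arrays 11750 of the 20103 genes were higher and 8312 lower, and without replicate 2 the numbers were 9627 and 10364. In the text below, "rose" and "fell" are used only of genes past the threshold, with the fit named.

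Dstn and 4930542N06Rik rose, and Tac2 and 4930430F08Rik fell, with all arrays. Dstn encodes destrin, which severs and depolymerises actin filaments. Its value was 7.76, 8.50 and 8.38 in adequate replicates 1 to 3 and 9.94, 9.91 and 10.72 in deficient replicates 1 to 3. Every deficient array lay above every adequate array, replicate 2 included. Dstn rose by 1.98 (SE 0.25, adjusted p = 0.0382), a 3.94-fold change, and by 2.26 (SE 0.29, adjusted p = 0.0061) without replicate 2. Tac2, a tachykinin precursor gene, had 7.70, 7.29 and 7.53 on the adequate and 6.21, 6.51 and 6.02 on the deficient diet. The groups did not overlap, and the difference was smallest between the replicate 2 arrays. Tac2 fell by 1.26 (SE 0.17, adjusted p = 0.0494), and by 1.5 (SE 0.15, adjusted p = 0.00238) without replicate 2.

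The other 2 genes carry only clone names. 4930542N06Rik had 9.07, 8.92 and 9.52 on the adequate and 10.52, 10.96 and 10.87 on the deficient diet. It rose by 1.61 (SE 0.17, adjusted p = 0.0166), and by 1.40 (adjusted p = 0.00467) without replicate 2. 4930430F08Rik had 7.91, 7.58 and 7.78 against 6.28, 6.62 and 6.13. It fell by 1.41 (SE 0.18, adjusted p = 0.0382), and by 1.64 (adjusted p = 0.00284) without replicate 2. Neither pair of groups overlapped. In proerythroblasts 3 of these 4 genes changed in the same direction, with 4930542N06Rik up by 1.93 (adjusted p = 2.49e-04), 4930430F08Rik at -1.20 (adjusted p = 0.00335) and Tac2 at -1.29 (adjusted p = 0.00194). Dstn had 0.84 there (adjusted p = 0.0985).

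Leaving out deficient replicate 3 gave differences of 1.71 for Dstn, -1.15 for Tac2, 1.57 for 4930542N06Rik and -1.31 for 4930430F08Rik, and none was called, with adjusted p-values of 0.166, 0.264, 0.154 and 0.177. Without adequate replicate 1 the adjusted p-values were 0.222 for Dstn, 0.277 for Tac2, 0.179 for 4930542N06Rik and 0.222 for 4930430F08Rik. Without adequate replicate 3 they were 0.208 for Dstn, 0.267 for Tac2 and 0.208 for 4930430F08Rik, and without deficient replicate 1 they were 0.144, 0.254 and 0.254. 4930542N06Rik kept its call there (0.00797 and 0.0221). All 4 genes kept their call without either replicate 2 array alone, with adjusted p-values from 0.00204 to 0.0374. Leaving out a proerythroblast array changes only the spread. It ended the call of Tac2 in each of the 6 cases, with adjusted p-values of 0.0766 to 0.141, and of Dstn in each of the 6, with 0.0659 to 0.104. 4930430F08Rik lost its call without any 1 of the adequate proerythroblast arrays (0.0766 to 0.104) or without deficient proerythroblast replicate 3 (0.0971). 4930542N06Rik lost its call only without any 1 of the adequate proerythroblast arrays among these 6 (0.053 to 0.059).

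Of the 10 genes with the next smallest p, Gss, Hadh and Ints13 had higher and Ralgapa2, Rdm1, Afmid, Asb3, Sri, Cep128 and Erlec1 lower means on the deficient diet. None passed with all arrays (limma adjusted p from 0.0611 to 0.134), and each of the 10 had diet groups that did not overlap. The genes were chosen by p in these same arrays, so the separation is no further result. Gss, the synthetase of the last step of glutathione synthesis, had 6.92, 6.30 and 6.82 on the adequate and 7.88, 7.83 and 7.84 on the deficient diet. Its 3 deficient arrays lay within 0.05 of each other. The difference was 1.17 (SE 0.18, adjusted p = 0.0887). Hadh, a dehydrogenase of mitochondrial fatty acid oxidation, had 7.30, 6.28 and 7.14 against 9.03, 8.03 and 9.12. Both replicate 2 arrays were about 1 unit below the others of their group, and the difference within replicate 2 was like that in the other replicates. Hadh had a difference of 1.82 with all arrays (SE 0.31, adjusted p = 0.134) and 1.85 without replicate 2 (SE 0.17, adjusted p = 0.00179).

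Ralgapa2, a subunit of a complex that switches off Ral GTPases, had 7.03, 6.66 and 6.58 against 5.77, 5.71 and 5.73. Rdm1, a gene of the RAD52 motif family, had 8.39, 7.95 and 8.35 against 7.15, 7.34 and 6.84. The differences were -1.02 (SE 0.14, adjusted p = 0.0611) for Ralgapa2 and -1.12 (SE 0.16, adjusted p = 0.0682) for Rdm1. Afmid, the formamidase of tryptophan breakdown, had -0.98. Sri, the calcium-binding protein sorcin, had -1.11, and Asb3 had -0.90. Erlec1, a lectin of the endoplasmic reticulum, had -0.80. The centrosomal gene Cep128 had -0.76 and Ints13, a subunit of the Integrator complex, 0.65. All 10 passed without replicate 2, with adjusted p-values from 0.00179 (Hadh) to 0.0318 (Erlec1). With the replicate block within each stage they had adjusted p-values from 0.00148 (Hadh) to 0.0301 (Erlec1). When deficient replicate 3 was left out in addition to replicate 2, Hadh (1.81, adjusted p = 0.0304) and Rdm1 (-1.22, adjusted p = 0.0257) were still called. The other 8 were not, with Gss at 0.115 and Ralgapa2 at 0.115.

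**Figure D2:**
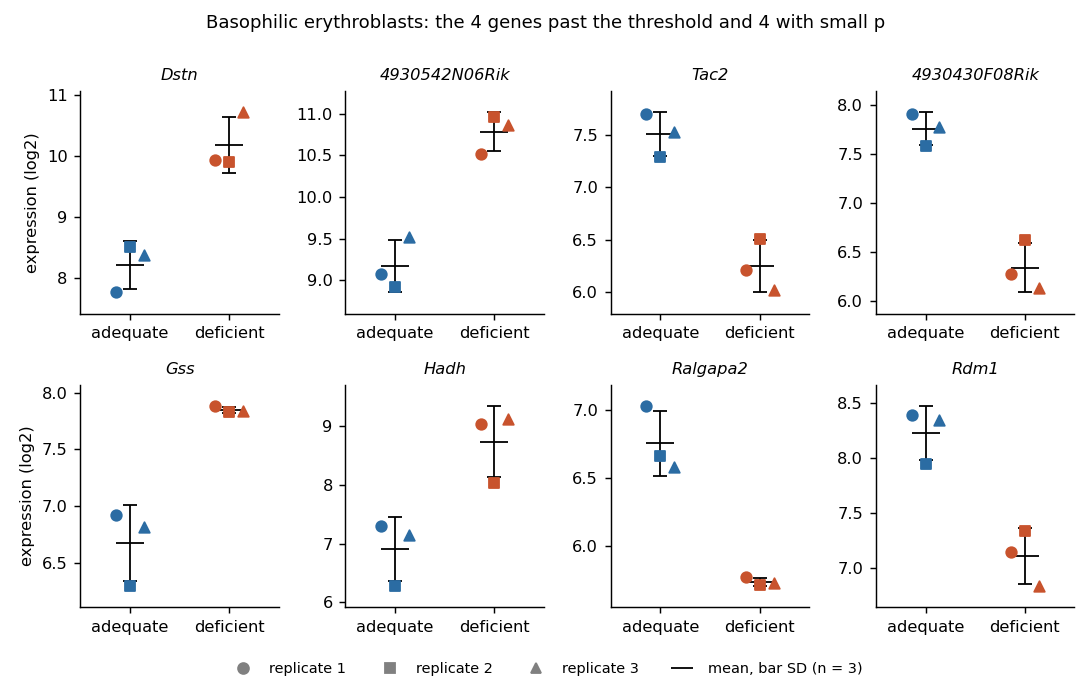
Expression (y axis, log2, each panel with its own scale) of the 4 genes past the threshold with all arrays and of 4 genes with small p that did not pass. Each symbol is 1 array, its shape the replicate number, and the black bar is the mean with its SD (n = 3). In each panel all 3 deficient arrays lie on the same side of all 3 adequate arrays. The genes were chosen by p in these same arrays. Hadh shows both replicate 2 arrays shifted down together (6.28 and 8.03).

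Groups of 3 arrays that did not overlap were found for 1615 genes (8.03%), 830 with the deficient arrays above (4.13%) and 785 below (3.9%). Among these, 85 rose (0.423%) and 81 fell (0.403%) without replicate 2. Their largest changes give the genes of this and the next paragraph. Besides Dstn and Hadh, the 15 largest increases included receptors and membrane proteins. Plxnc1, a semaphorin receptor, had 6.38, 6.56 and 6.75 on the adequate and 8.83, 7.49 and 9.07 on the deficient diet. Cacna1c, the pore subunit of an L-type calcium channel, had 6.19, 6.05 and 6.13 against 8.17, 6.68 and 8.55. In both genes deficient replicate 2 was the lowest deficient array. Without replicate 2, Plxnc1 rose by 2.38 (SE 0.23, adjusted p = 0.002) and Cacna1c by 2.20 (SE 0.17, adjusted p = 0.00142). With all arrays the differences were 1.90 (adjusted p = 0.134) for Plxnc1 and 1.68 (adjusted p = 0.183) for Cacna1c. Ifngr2, a chain of the interferon gamma receptor, rose by 2.12 and the tetraspanin gene Tspan14 by 1.97 without replicate 2. Ankrd36 rose by 2.48, Uhrf1bp1l by 1.72, Rph3al by 1.70, Tmem88b by 1.69 and Clint1, a clathrin adaptor of vesicle traffic, by 1.61. Metabolic enzymes were Acadsb (1.47), of branched-chain amino acid breakdown, and the inorganic pyrophosphatase gene Ppa1 (1.46). Cell cycle genes were Ccnd2 (1.46), which encodes cyclin D2, and Ccng1 (1.39), which encodes cyclin G1. Of these 15, only Dstn, Acadsb and Ccnd2 lost their call when deficient replicate 3 was also left out, at 0.0592, 0.212 and 0.089.

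The 15 largest decreases were led by Suox, which encodes sulfite oxidase, the mitochondrial enzyme of the last step of sulfur amino acid breakdown. Suox had 9.76, 9.0 and 9.70 on the adequate and 8.27, 7.78 and 7.43 on the deficient diet. The lowest adequate array was above the highest deficient array by 0.73. Suox fell by 1.88 without replicate 2 (SE 0.36, adjusted p = 0.0358), and the difference was -1.66 (SE 0.31, adjusted p = 0.135) with all arrays. It was not called when deficient replicate 3 was also left out (-1.46, adjusted p = 0.227). Besides Tac2, Rdm1, Sri, Afmid and Ralgapa2, the genes that fell without replicate 2 were C1qtnf12 (-1.40), a secreted factor gene, Gpc4 (-1.26), a cell surface glypican, and Sap30 (-1.22), a subunit of a histone deacetylase complex. The others were Eid1 (-1.21), Ermp1 (-1.19), Pcmtd2 (-1.18), Gars (-1.16), Ccdc6 (-1.09) and the aldehyde dehydrogenase gene Aldh1a7 (-1.09). Tac2, Rdm1, Pcmtd2 and Gars were also called without deficient replicate 3. The other 11 were not, with adjusted p-values from 0.0712 for Afmid to 0.285 for Eid1.

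None of the selenoprotein genes changed with all arrays, and 3 rose without replicate 2, all 3 with products that work in the endoplasmic reticulum or in thioredoxin reduction. Of 24 selenoprotein genes listed, 21 were tested. Their median difference was 0.07 with all arrays and 0.01 without replicate 2, against 0.04 and -0.01 over all genes tested. With deficient replicate 3 left out it was 0.12, against 0.07. None fell. The arrays did not overlap in 3 genes that were higher (Selenot, Gpx4 and Selenoi) and in 3 that were lower (Gpx1, Msrb1 and Selenow). Over all genes these shares were 4.13% and 3.9%, and 1.36% rose without replicate 2.

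Selenos, a membrane protein of the pathway that removes misfolded proteins from the endoplasmic reticulum, had 6.48, 6.11 and 6.56 on the adequate and 7.63, 6.44 and 7.77 on the deficient diet. Deficient replicate 2 lay among the adequate arrays, although above adequate replicate 2. Selenos rose by 1.18 without replicate 2 (SE 0.13, adjusted p = 0.00296) and was still called when any of the other 4 arrays was also left out. With all arrays its difference was 0.90 (SE 0.29, adjusted p = 0.466), and with the block within each stage its adjusted p was 0.0399. Selenot, a thioredoxin-like protein of the same compartment, had 10.48, 10.77 and 10.66 against 11.15, 11.22 and 11.49. It showed the difference in all 3 replicates. Selenot rose by 0.75 without replicate 2 (SE 0.13, adjusted p = 0.0208), with 0.65 (SE 0.13, adjusted p = 0.153) with all arrays and an adjusted p of 0.0347 with the block. It was not called when deficient replicate 3 was left out too (0.14).

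Txnrd1, the cytosolic thioredoxin reductase, had 8.67, 7.93 and 8.72 against 9.54, 7.78 and 9.37. Replicates 1 and 3 were higher on the deficient diet, and replicate 2 was slightly lower. Txnrd1 rose by 0.76 without replicate 2 (SE 0.13, adjusted p = 0.0248), with 0.46 (SE 0.38, adjusted p = 0.954) with all arrays. It was not called when deficient replicate 3 was also left out (0.112).

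Gpx1, the abundant cytosolic glutathione peroxidase, had 13.25, 13.52 and 13.36 on the adequate and 12.87, 13.17 and 12.93 on the deficient diet. Each deficient array was below each adequate array, and the difference of -0.39 (SE 0.16, adjusted p = 0.712) did not pass, nor did -0.41 (SE 0.17, adjusted p = 0.31) without replicate 2. Gpx4, which reduces lipid peroxides in membranes, had 8.56, 7.96 and 8.53 against 8.83, 8.67 and 9.01. Its groups did not overlap in the opposite direction, and 0.49 (SE 0.17, adjusted p = 0.544) did not pass, nor did 0.38 (adjusted p = 0.13) without replicate 2. Gpx2 had -0.15 and Gpx3 0.08 with all arrays. The mitochondrial reductase gene Txnrd2 had 0.01 and Txnrd3 0.18. The deiodinase gene Dio2, near the filter level of 5.3 at 5.13 to 6.06, had 0.27.

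The other genes whose products lie in the endoplasmic reticulum were Selenoi (0.44), an enzyme of phospholipid synthesis, Selenof (0.19), Selenom (0.07), Selenok (0.06) and Selenon (0.01). With Selenos and Selenot, all 7 of this class had a difference above 0 with all arrays, and 6 of 7 without replicate 2. Of the remaining 6, only Sephs2, the selenophosphate synthetase that is itself a selenoprotein, was higher (0.24). Selenow had -0.29, Selenoh -0.28, the methionine sulfoxide reductase gene Msrb1 -0.27, and Selenoo -0.14. Selenop, the plasma selenium carrier, had -0.35 with an SE of 0.49. None of these passed in either fit. The genes that make and insert selenocysteine had no change past the threshold. Of 14 tested, 10 were lower with all arrays, with a median of -0.14, and 8 without replicate 2, with a median of -0.04. With deficient replicate 3 left out 13 were lower, with a median of -0.22. Sepsecs, the enzyme that forms selenocysteine on its tRNA, had -0.52 (adjusted p = 0.825). Sars, which charges that tRNA with serine, had -0.47 (adjusted p = 0.782). The tRNA-modifying enzyme gene Alkbh8 had -0.66 and the elongation factor gene Eefsec -0.20.

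**Figure D3:**
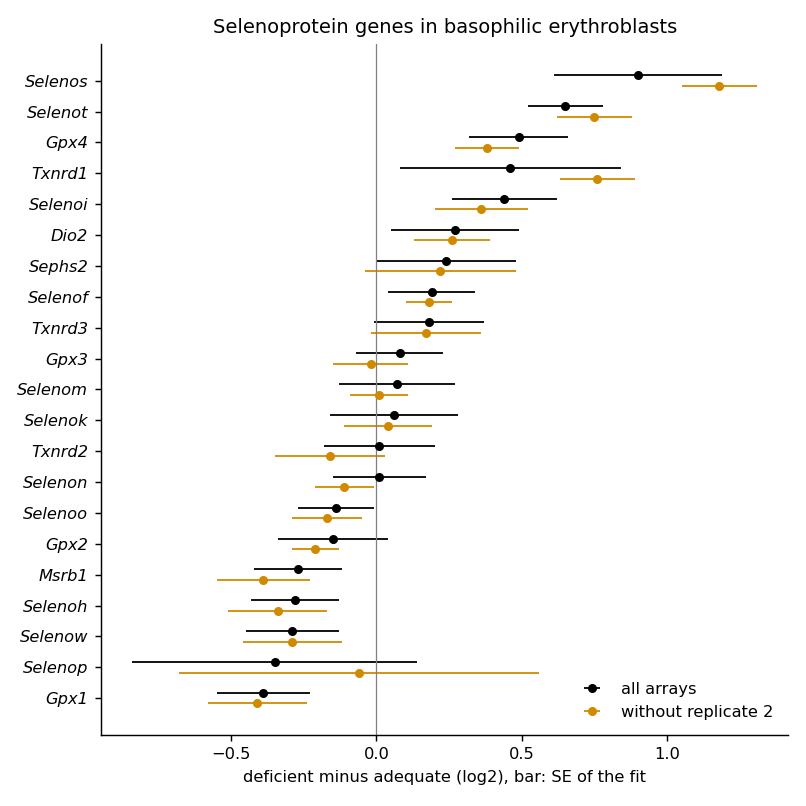
Difference between deficient and adequate basophilic erythroblasts (x axis, log2) for the 21 selenoprotein genes tested, with all arrays (black) and without replicate 2 (orange). The bars are the SE of the fit. Selenos, Selenot and Txnrd1 lie farthest to the right without replicate 2, at 1.18, 0.75 and 0.76, and the error of Txnrd1 falls from 0.38 to 0.13.

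Among glutathione genes, Gss and Gsr rose and Shmt2 and Chac1 fell without replicate 2, against 1.36% and 0.716% of all genes. The other 29 of 33 did not pass. With all arrays none passed. Gsr, glutathione reductase, had 7.86, 7.36 and 7.75 on the adequate and 9.03, 7.03 and 9.16 on the deficient diet. Replicates 1 and 3 were higher on the deficient diet and replicate 2 lower. Gsr rose by 1.29 without replicate 2 (SE 0.13, adjusted p = 0.00227) and was called whichever of the other 4 arrays was also left out. With all arrays its difference was 0.75 (SE 0.43, adjusted p = 0.916). The transferase genes Gstm5 (0.46) and Gstp1 (0.44) had groups that did not overlap and did not pass. The list's median was 0.02 with all arrays and -0.04 without replicate 2.

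Without replicate 2, 1.36% of all genes rose and 0.716% fell. Of 27 genes of the NRF2 antioxidant programme and NADPH supply, Nqo1, Bach1 and Pgd rose and Aldh1a1 and Cbr1 fell in that fit. NRF2 is the transcription factor that switches on such genes under oxidative stress, and BACH1 is a heme-regulated repressor of many of the same genes. Nqo1, a quinone reductase, had 7.19, 7.02 and 7.29 against 8.44, 7.36 and 8.64. The deficient arrays all lay higher, with replicate 2 closest to the adequate arrays. Nqo1 rose by 1.3 without replicate 2 (SE 0.12, adjusted p = 0.00199), in each of the 4 fits that left out another array, and had 0.98 (SE 0.26, adjusted p = 0.329) with all arrays. With the block its adjusted p was 0.0439.

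Pgd, an NADPH-producing enzyme of the pentose phosphate pathway, had 6.99, 6.92 and 7.13 against 7.73, 7.53 and 7.58. It rose by 0.59 without replicate 2 (adjusted p = 0.0248), had 0.60 with all arrays (adjusted p = 0.145), and was not called when deficient replicate 3 was also left out (0.103). Bach1 rose by 0.70 (adjusted p = 0.00582) without replicate 2, and missed the threshold once deficient replicate 3 was gone as well (0.0681). Aldh1a1 and Cbr1 both had -1.0 without replicate 2 (adjusted p = 0.0318 and 0.0126), and 0.128 and 0.0956 without deficient replicate 3 as well. The list's median was 0.09, and -0.02 without replicate 2. Of 18 other antioxidant enzymes, Srxn1, the sulfiredoxin that repairs peroxiredoxins, was the only one past the threshold without replicate 2. Srxn1 had 8.19, 8.08 and 8.60 against 9.86, 8.48 and 9.44. Deficient replicate 2 lay among the adequate arrays and the other 2 deficient arrays above them. It rose by 1.25 (SE 0.21, adjusted p = 0.0219), and had 0.0681 without deficient replicate 3 too. Txn2 (-0.42), Txn1 (0.23) and Sod2 (0.10) did not pass.

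The antioxidant response element is the motif bound by NRF2. Its core was searched as TGACNNNGC on both strands in the 250 bases before each gene's start in RefSeq promoters (GRCm38.p6). Of the selenoprotein, glutathione, antioxidant and NRF2 list members, 89 had a promoter there, and 13 of these held a match (14.6%), against 11.5% of 27025 genes. Of the 12 called members with a promoter, Txnrd1 was the only one with a match, in 1 of its 3 promoters. That match is shown because the gene is both a selenoprotein and an NRF2 target. It begins at position -92 on the opposite strand to the motif as written, at chr10:82859089-82859147 on the plus strand, with the match in capitals.
Txnrd1: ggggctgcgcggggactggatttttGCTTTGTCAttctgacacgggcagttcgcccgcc

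Genes of the integrated stress response were lower on the deficient diet in replicates 1 and 3, and 6 of 39 fell without replicate 2. In this response, kinases that sense amino acid shortage, heme shortage or misfolded proteins slow translation, and the factor ATF4 switches on amino acid synthesis and transport genes. With all arrays 27 of 39 were lower and none passed. Over all genes 0.716% fell without replicate 2. The list's median was -0.20 with all arrays and -0.35 without replicate 2, against 0.04 and -0.01 over all genes. It was -0.10 with deficient replicate 3 left out, against 0.07 over all genes, and -0.07 after quantile normalization. The median difference between same-numbered arrays was -0.33 in replicate 1, 0.16 in replicate 2 and -0.32 in replicate 3, so that the replicate with the high background differed in sign.

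Asns, asparagine synthetase, had 10.67, 10.49 and 10.81 on the adequate and 9.22, 10.51 and 8.97 on the deficient diet. Deficient replicate 2 was at the level of the adequate arrays, and the other 2 deficient arrays were lower. Asns fell by 1.65 without replicate 2 (SE 0.17, adjusted p = 0.00238), also in each of the 4 fits that left out another array. With all arrays the difference was -1.09 (SE 0.32, adjusted p = 0.387). Chac1, which breaks down glutathione, had 9.01, 7.33 and 7.81 against 6.81, 7.89 and 6.75. Its adequate arrays were spread widely, and replicate 2 was higher on the deficient diet. Chac1 fell by 1.63 without replicate 2 (SE 0.30, adjusted p = 0.03), and was not called when deficient replicate 3 was also left out (0.184).

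Gars, glycyl-tRNA synthetase, had 10.43, 9.24 and 10.15 against 9.10, 8.40 and 9.17. Unlike Asns and Chac1 it was lower on the deficient diet in all 3 replicates, and the groups did not overlap. Gars fell by 1.16 without replicate 2 (SE 0.12, adjusted p = 0.00296), in each of the 4 further fits, and with the block (adjusted p = 0.00977). With all arrays it had -1.05 (SE 0.28, adjusted p = 0.326). Ddit3, which encodes the stress factor CHOP, fell by 1.06 (adjusted p = 0.0137), the serine hydroxymethyltransferase gene Shmt2 by 1.09 (adjusted p = 0.0274) and the pseudokinase gene Trib3 by 0.74 (adjusted p = 0.0226) without replicate 2. When deficient replicate 3 was also left out, these 3 had adjusted p-values of 0.125, 0.197 and 0.171. Eif2ak2, the double-stranded RNA sensor PKR, had -0.77 with all arrays, groups that did not overlap, and an adjusted p of 0.0342 with the block.

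ATF4 and its partners bind a composite site, the CEBP-ATF response element, which was searched as TGATGNAA on both strands. It was found in 7 of the 34 stress response members with a promoter (20.6%), against 3.91% of all genes. The list holds known ATF4 targets. Of the 6 genes that fell, Asns, Chac1 and Gars held a match, and these stretches are shown with the match in capitals. The match begins at position -23 in Asns (chr6:7693210-7693257, minus strand), at -193 in Chac1 (chr2:119351024-119351081, plus strand) and at -30 in Gars (chr6:55037946-55038000, plus strand). In Chac1 and Gars the capitals read as the reverse complement of the motif. The windows of Ddit3, Trib3 and Shmt2 did not hold these letters.
Asns: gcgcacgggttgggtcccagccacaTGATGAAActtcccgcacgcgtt
Chac1: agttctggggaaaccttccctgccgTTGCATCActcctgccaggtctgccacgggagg
Gars: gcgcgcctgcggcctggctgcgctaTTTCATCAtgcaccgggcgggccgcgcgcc

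Of 30 genes of endoplasmic reticulum folding and degradation, Herpud1, Derl1 and Erlec1 fell without replicate 2, against 0.716% of all genes. None of the 30 passed with all arrays. Herpud1, Derl1 and Erlec1 have known roles in the removal of misfolded proteins, as has Selenos, which rose without replicate 2. Herpud1 had -0.94 (adjusted p = 0.0352) and Derl1 -0.63 (adjusted p = 0.0399) without replicate 2, and Erlec1 -0.66 (adjusted p = 0.0318). When deficient replicate 3 was dropped too the adjusted p-values were 0.193, 0.224 and 0.0593. Xbp1, a transcription factor of the unfolded protein response, went the other way, with 8.66, 8.57 and 8.72 on the adequate and 9.40, 9.64 and 9.67 on the deficient diet. Its groups did not overlap, and 0.92 (SE 0.21, adjusted p = 0.236) did not pass. It had 0.84 (adjusted p = 0.17) without replicate 2, and an adjusted p of 0.0234 with the block.

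The interferon list's median difference was -0.23, and -0.28 without replicate 2, and Isg15, Usp18 and Xaf1 fell without replicate 2. Of 49 tested, 38 were lower with all arrays and none passed, and 9 had deficient arrays wholly below the adequate arrays. Over all genes 8312 of 20103 were lower, 3.9% lay wholly below, and 0.716% fell without replicate 2. Isg15, a ubiquitin-like modifier, had 9.35, 9.64 and 9.13 on the adequate and 7.24, 9.73 and 7.77 on the deficient diet. Deficient replicate 2 was the highest of the 6 arrays. Isg15 fell by 1.74 without replicate 2 (SE 0.21, adjusted p = 0.00507) and had -1.13 (SE 0.47, adjusted p = 0.712) with all arrays. It was called in 3 of the 4 further fits, with -2.0 (adjusted p = 0.0254) without deficient replicate 3. Usp18, which removes ISG15 from its targets, fell by 1.0 (adjusted p = 0.00516) and Xaf1 by 1.22 (adjusted p = 0.0318) without replicate 2. On leaving out deficient replicate 3 as well they had adjusted p-values of 0.0631 and 0.18. Ifitm3, a membrane protein that blocks virus entry, had 8.63, 8.58 and 8.34 against 7.65, 7.80 and 7.22. It was lower in every replicate, with -0.96 (SE 0.26, adjusted p = 0.326) with all arrays and an adjusted p of 0.0102 with the block. Gbp7 (-1.02) and Herc6 (-0.83) had groups that did not overlap and adjusted p-values of 0.0347 and 0.0411 with the block.

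**Figure D4:**
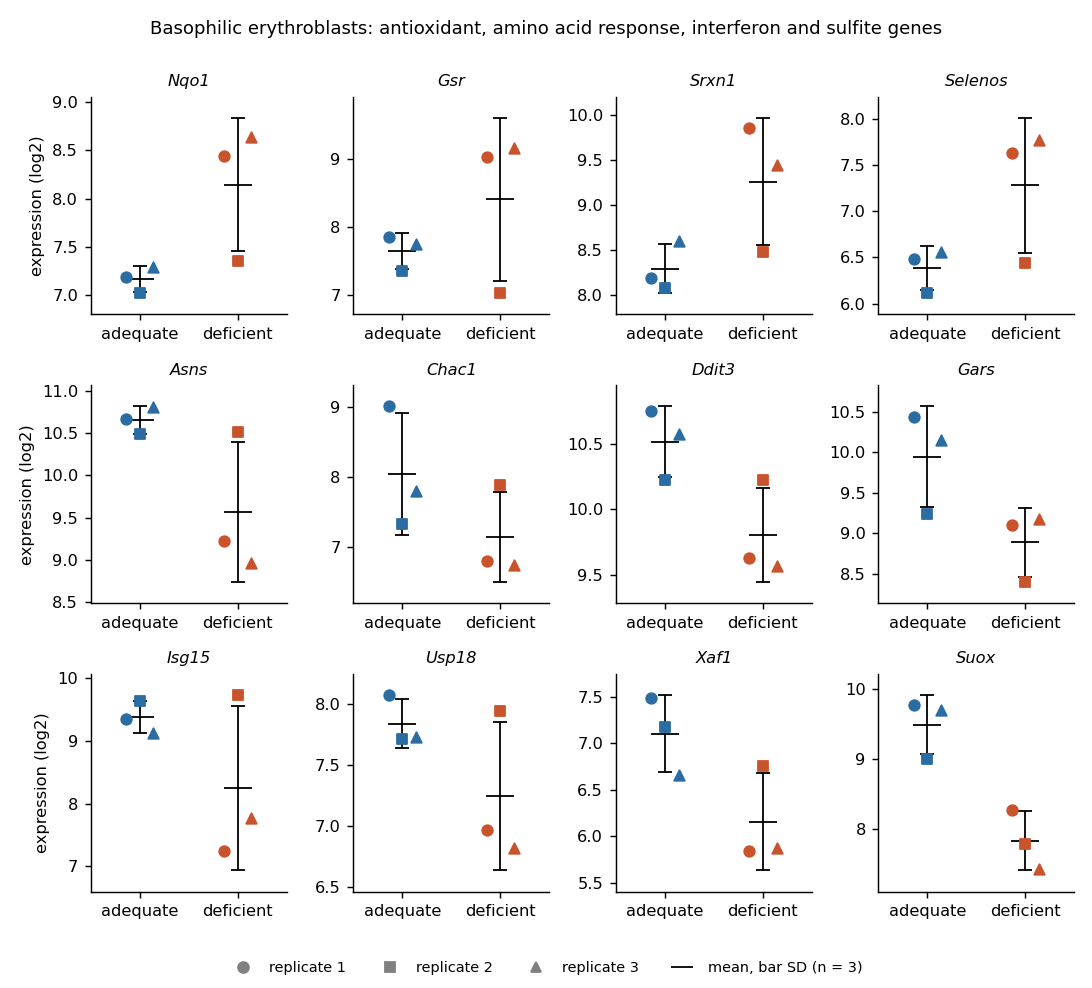
Expression (y axis, log2, each panel with its own scale) of antioxidant genes (Nqo1, Gsr, Srxn1, Selenos), stress response genes (Asns, Chac1, Ddit3, Gars), interferon genes (Isg15, Usp18, Xaf1) and the sulfite oxidase gene Suox. Each symbol is 1 array, its shape the replicate number, and the black bar is the mean with its SD (n = 3). In Gsr, Asns and Isg15 the deficient replicate 2 square (7.03, 10.51 and 9.73) lies with or beyond the adequate arrays, whereas in Gars and Suox all deficient arrays lie below.

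The interferon-stimulated response element, the site of the STAT and IRF factors, was searched on both strands as GAAA, any 2 bases, and GAAA again. It was found in 15 of 39 interferon list members with a promoter (38.5%), against 3.46% of all genes. The list holds known interferon response genes, so this share is no result about the diet. Of the 3 genes that fell, Isg15 held 3 overlapping matches, these letters were not in the Xaf1 window, and Usp18 had no promoter in the set. The middle match of Isg15 begins at position -72 (chr4:156200856-156200915, minus strand) and is shown in capitals because Isg15 had the largest decrease of the list without replicate 2.
Isg15: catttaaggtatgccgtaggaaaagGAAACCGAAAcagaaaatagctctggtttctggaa

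Genes of DNA replication and mitosis were lower on the deficient diet in nearly every member, and few passed. Of 55 S phase genes, 54 were lower with all arrays (median -0.56) and 53 without replicate 2 (median -0.36). None passed with all arrays, and Fen1, the flap endonuclease of lagging strand synthesis, fell by 0.53 (adjusted p = 0.0294) without replicate 2. With the block within each stage 8 of 55 fell, against 0.935% of all genes. Of 64 genes of G2 and mitosis, 63 were lower with all arrays (median -0.53) and 60 without replicate 2 (median -0.19). With deficient replicate 3 left out, the S phase median was -0.82 and the mitosis median -0.84. The condensation and cytokinesis genes Cdca2 (-0.52), Kif22 (-0.47) and Anln (-0.52) fell without replicate 2, against 0.716% of all genes. When deficient replicate 3 was also left out none of these 4 was called, with adjusted p-values of 0.162 for Fen1, 0.193 for Cdca2, 0.156 for Kif22 and 0.224 for Anln.

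The size of this difference varied between the replicates. For S phase the median difference between same-numbered arrays was -0.49 in replicate 1, -0.94 in replicate 2 and -0.23 in replicate 3. For G2 and mitosis it was -0.31, -1.09 and -0.10. Replicate 2 had the largest decrease and also the largest difference in background, and the part of that background in the decrease was not tested. Prim2, a primase subunit, had 9.24, 8.31 and 8.95 on the adequate and 8.17, 7.37 and 8.50 on the deficient diet. Adequate replicate 2 lay below deficient replicate 3, so the groups overlapped, while each deficient array was below the adequate array of its number. Prim2 had -0.82 (adjusted p = 0.544) with all arrays and an adjusted p of 0.0327 with the block. Pole2 (-1.08) and Chaf1a (-0.55), which serve DNA synthesis and chromatin assembly, had adjusted p-values of 0.0353 and 0.0475 with the block. Ccne2, which encodes cyclin E2, had -0.56, and Nusap1, of the spindle, -0.47, both with groups that did not overlap. Of 16 replication-dependent histone genes none passed in either fit, with a median of -0.11, and -0.45 with deficient replicate 3 left out. In bulk samples fewer cells of a type and less RNA per cell cannot be told apart.

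**Figure D5:**
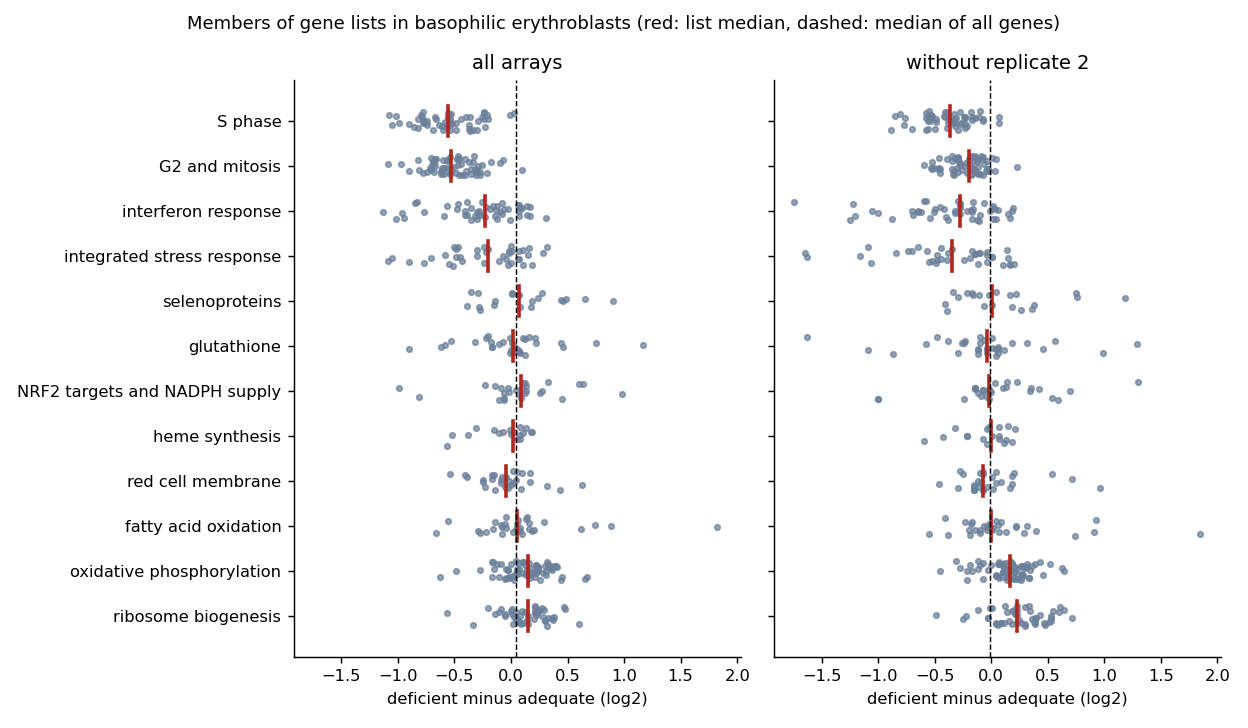
Difference between deficient and adequate basophilic erythroblasts (x axis, log2) of the members of 12 gene lists, with all arrays on the left and without replicate 2 on the right. Each grey point is a gene, the red bar the list's median and the dashed line the median of all genes tested (0.04 and -0.01). The S phase and mitosis medians move from -0.56 and -0.53 to -0.36 and -0.19 without replicate 2, while the stress response median moves from -0.20 to -0.35.

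Genes of the red cell programme showed no change past the threshold with all arrays. Of 18 heme synthesis genes, 9 were higher and 9 lower, none passed in either fit, and Uros (-0.57), of porphyrin ring closure, had groups that did not overlap. Tmem14c (-0.52), a porphyrin transporter, and Abcb10 (-0.38) did not pass. Of 29 red cell membrane genes, Cd44, an adhesion receptor that is lost with maturation, rose by 0.96 without replicate 2 (SE 0.12, adjusted p = 0.00574), and had 0.0617 without deficient replicate 3 too. Its values were 6.72, 6.81 and 6.33 against 7.50, 6.79 and 7.47, with no difference in replicate 2. Aqp1 (-0.54), Slc29a1 (-0.39) and Slc2a1 (0.32) did not pass. Of 6 globin genes tested none passed. The theta globin genes Hbq1a (0.31) and Hbq1b (0.22), whose near-identical sequences may share signal, had groups that did not overlap, and the embryonic genes Hbb-bh1 (0.35) and Hbb-y (0.32) overlapped. Features of the major adult globins name several genes and were left out.

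Of 24 erythroid regulators 19 were lower (median -0.14, and -0.25 with deficient replicate 3 left out) and none passed in either fit. Lmo2, a bridging protein of the GATA1 complex, had 9.58, 9.77 and 9.84 on the adequate and 9.13, 9.39 and 9.17 on the deficient diet. The groups did not overlap, and the difference was -0.50 (adjusted p = 0.528). Its partner Ldb1 had -0.34 and Klf1 -0.62, whereas E2f2 was higher by 0.31, with groups that did not overlap in Ldb1 and E2f2. Of 17 progenitor genes Ccnd2 rose without replicate 2, and Runx1 (-0.27) and Sox4 (0.19) did not pass.

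Of 27 genes of the erythropoietin and STAT5 pathway, Cish and Erfe, both induced by erythropoietin, rose without replicate 2, against 1.36% of all genes. The list's median was 0.07 with all arrays, with 15 higher and 12 lower, and 0.06 without replicate 2. With the block 2 rose and 2 fell. Cish, a feedback inhibitor of the receptor, had 8.56, 7.59 and 8.56 against 9.66, 8.55 and 9.99. Every deficient array was about 1 unit or more above the adequate array of its number. Cish rose by 1.26 without replicate 2 (SE 0.22, adjusted p = 0.0234) and with the block (adjusted p = 0.0159), and had 1.16 (adjusted p = 0.44) with all arrays. Erfe, the hormone by which erythroblasts lower hepcidin, had 8.74, 7.69 and 8.09 against 9.89, 7.99 and 10.04. It rose by 1.55 without replicate 2 (adjusted p = 0.0387). When deficient replicate 3 was left out too, neither was called (Cish 0.181, Erfe 0.221). The receptor gene Epor had 10.88, 10.35 and 10.76 against 10.35, 9.46 and 10.31. It had -0.62 (adjusted p = 0.581) with all arrays, -0.49 (adjusted p = 0.0736) without replicate 2, and an adjusted p of 0.0403 with the block. The adaptor gene Gab2 had 0.71 and Sos1 -0.59, with 0.0456 and 0.0346 with the block. Of 17 genes of BMP and hedgehog signalling, 26 of iron handling, 17 of eicosanoid synthesis and 20 ubiquitin ligases of maturation, none passed in either fit. Among them Steap3, an endosomal iron reductase, had -0.55, the transferrin receptor 2 gene Tfr2 -0.36, the hedgehog receptor gene Ptch1 0.26, the leukotriene enzyme gene Lta4h -0.64 and Cul4a -0.40.

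Without replicate 2, the p53 targets Ccng1, Mdm2 and Eda2r rose, and none of the 26 fell, against 1.36% and 0.716% of all genes. Ccng1 had 8.05, 7.97 and 8.03 on the adequate and 9.44, 8.39 and 9.41 on the deficient diet. The adequate arrays lay within 0.10 of each other, and all deficient arrays lay above. Ccng1 rose by 1.39 (SE 0.14, adjusted p = 0.00251) without replicate 2 and in each of the 4 further fits, and had 1.06 (SE 0.24, adjusted p = 0.219) with all arrays. Mdm2, the ligase that degrades p53, rose by 0.58 (adjusted p = 0.0457) and the receptor gene Eda2r by 0.78 (adjusted p = 0.0464). On leaving out deficient replicate 3 too they had 0.0993 and 0.18. Cdkn1a, which encodes the cell cycle inhibitor p21, had 7.65, 6.87 and 7.66 against 10.03, 7.97 and 9.51. Its groups did not overlap, yet 1.78 (SE 0.56, adjusted p = 0.464) with all arrays and 2.12 (SE 0.56, adjusted p = 0.105) without replicate 2 did not pass. Of 25 genes of the BCL2 family and cell death, Casp6, an executioner caspase, fell by 0.98 without replicate 2 (adjusted p = 0.0294), with 0.121 without deficient replicate 3 as well.

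Besides Dstn, the actin genes Tmod3 rose and Ssh1 and Wasf2 fell without replicate 2, of 46 tested. In that fit 1.36% of all genes rose and 0.716% fell. Ssh1 is the phosphatase that activates the cofilin and destrin family. Ssh1 had 9.14, 8.18 and 8.90 against 8.07, 7.14 and 7.88. Every deficient array was about 1 unit below the adequate array of its number. Ssh1 fell by 1.04 without replicate 2 (SE 0.14, adjusted p = 0.00829) and with the block (adjusted p = 0.00679), with -1.04 (adjusted p = 0.314) with all arrays. Tmod3, which caps pointed ends of actin filaments, rose by 2.03 without replicate 2 (adjusted p = 0.011), and Wasf2 fell by 0.37 (adjusted p = 0.0432). Without deficient replicate 3 as well the adjusted p-values were 0.0921 for Ssh1, 0.113 for Tmod3 and 0.221 for Wasf2.

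Of 32 fatty acid oxidation genes, Hadh, Acaa2 and Acadvl rose without replicate 2, against 1.36% of all genes, and the list's median was 0.00. Acaa2, the thiolase of the last step of each cycle, rose by 0.93 (adjusted p = 0.0142), and Acadvl, the acyl-CoA dehydrogenase of very long chains, by 0.74 (adjusted p = 0.0341). The carnitine carrier gene Slc25a20 had 0.88 with all arrays and an adjusted p of 0.0371 with the block. Once deficient replicate 3 was also left out, Acaa2 had 0.137 and Acadvl 0.184. Of 71 oxidative phosphorylation genes 54 were higher with all arrays (median 0.15), and none passed in either fit. Groups did not overlap in 15, all with the deficient arrays above, against 4.13% of all genes. With deficient replicate 3 left out, 42 of the 71 were higher and the median was 0.04, below the 0.07 of all genes, and none had an unadjusted p under 0.05 against 11 with all arrays. Ndufb6, a complex I subunit, had 9.87, 9.16 and 9.87 against 10.44, 9.89 and 10.58, with a difference of 0.67 (adjusted p = 0.528) and 0.0341 with the block. Of 24 glycolysis genes Pgam1 rose by 1.21 without replicate 2 (adjusted p = 0.00712), with 0.0631 without deficient replicate 3 too. Of 21 cholesterol synthesis genes, Hsd17b7 rose by 1.40 (adjusted p = 0.00582) and Srebf2, the pathway's transcription factor, by 0.65 (adjusted p = 0.0138) without replicate 2. None of either list passed with all arrays. Their adjusted p-values were 0.064 and 0.0541 without deficient replicate 3 as well.

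Of 51 ribosome biogenesis genes 42 were higher with all arrays (median 0.15) and 44 without replicate 2 (median 0.23). With deficient replicate 3 left out 34 were higher, with a median of 0.12 against 0.07 over all genes. The median difference between same-numbered arrays was 0.35, -0.11 and 0.17 in replicates 1, 2 and 3, so replicate 2 differed in sign. Utp4 (0.71), Utp15 (0.60), Pes1 (0.61), Heatr1 (0.51) and Imp4 (0.64) rose without replicate 2, against 1.36% of all genes. None of these rose with all arrays or with the block. Without deficient replicate 3 too their adjusted p-values ran from 0.0765 (Utp4) to 0.203 (Utp15). Dkc1, the pseudouridine synthase of rRNA and telomerase, went the other way, with 8.59, 9.01 and 8.64 against 8.28, 8.27 and 7.97, a difference of -0.57 (adjusted p = 0.326). Of 33 ribosomal protein genes none passed in either fit, and the median was -0.01 in both, and -0.10 with deficient replicate 3 left out. Of 36 autophagy genes Atg5 (0.64) and Atg7 (0.45), which build the conjugation machinery, rose without replicate 2, with 0.0617 and 0.2 without deficient replicate 3 as well. Wipi1, which binds the forming autophagosome, had 9.24, 9.47 and 9.29 against 8.49, 8.68 and 8.57. It was lower by about the same amount in all 3 replicates (-0.75, adjusted p = 0.148), with 0.0539 without replicate 2 and 0.0294 with the block.

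Of 20 genes of sulfur oxidation and selenium binding, Suox alone passed without replicate 2, and 6 had deficient arrays wholly below the adequate arrays. Over all genes 3.9% lay wholly below. With the block within each stage Suox, Selenbp1 and Selenbp2 fell. Selenbp1, a selenium-binding protein that oxidises methanethiol, had 9.14, 9.92 and 9.13 on the adequate and 7.92, 8.83 and 7.75 on the deficient diet. It was lower by more than 1 unit in each replicate, with -1.23 (SE 0.34, adjusted p = 0.359) with all arrays and 0.0223 with the block. Selenbp2, a close copy whose probes may share signal, had -1.17 and 0.0243. Sqor, the mitochondrial enzyme that oxidises sulfide, had 6.12, 6.36 and 6.33 against 5.65, 5.81 and 5.62. The groups did not overlap, and -0.58 (adjusted p = 0.359) did not pass. In the deficient arrays Suox, Selenbp1 and Sqor were thus lower in every replicate, replicate 2 included.

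Markers of other cell types were checked beside these groups, and none passed with all arrays. The mean level of 22 neutrophil markers was 5.81 to 6.02 in the adequate and 6.09 to 6.36 in the deficient arrays, and these ranges did not overlap. Of 21 tested, 18 were higher and 3 lower, Csf3r and Camp among these 3. The median was 0.17 (0.29 with deficient replicate 3 left out), and Mmp8, Retnlg and Wfdc21 had 0.82, 1.03 and 0.58. In the adequate arrays Mmp8 (4.61 to 5.01) and Retnlg (4.42 to 4.84) lay below the filter level of 5.3. Retnlg had 6.52, 4.19 and 6.39 on the deficient diet, so that deficient replicate 2 was the lowest of the 6 arrays. S100a8, a calcium-binding protein of neutrophils, passed with the block (adjusted p = 0.0462), with 5.68, 3.78 and 4.97 on the adequate and 7.03, 4.49 and 6.95 on the deficient diet. The granule protein gene Camp, the brightest of the list, lay at 7.76 to 7.94 against 7.71 to 8.0. The part of neutrophil RNA in the results was not tested. Most megakaryocyte markers tested were also higher. The mean level of the 10 tested was 6.46 to 6.52 in the adequate and 6.59 to 6.78 in the deficient arrays, without overlap, while over all 13 measured it was 6.10 to 6.24 against 6.17 to 6.48. Of the 10 tested, 9 were higher, with a median of 0.17. In 2 the deficient arrays lay wholly above, against 4.13% of all genes. The median difference between same-numbered arrays was 0.17, 0.33 and 0.04 in replicates 1, 2 and 3. Itga2b lay at 7.45 to 7.50 against 7.88 to 8.63. Gp9, the brightest of the list, was the 1 lower gene, with 8.78, 7.73 and 8.57 against 8.14, 8.06 and 8.07. The part of megakaryocyte RNA in the results was not tested. For the other classes the ranges overlapped. They were 6.39 to 6.79 against 6.33 to 6.74 for macrophage and 7.44 to 7.91 against 7.13 to 7.84 for B cell markers. Those of T and NK cells lay at 5.87 to 6.0 and 5.74 to 6.13, of stroma at 5.38 to 5.62 and 5.38 to 5.92, and of mast cells and basophilic granulocytes at 4.82 to 5.03 and 4.84 to 5.35. The erythroblast markers lay at 11.13 to 11.47 and 10.81 to 11.35. Of 11 tested, 9 were lower and 2 higher with all arrays (median -0.15). Without replicate 2, 7 were lower and 4 higher (median -0.07). With deficient replicate 3 left out all 11 were lower (median -0.24), and after quantile normalization of all arrays the median was -0.01. The background features of these arrays lay at 3.63 to 4.70. Without replicate 2, 1 megakaryocyte and 1 B cell marker rose. Itga2b, an integrin of platelets and early progenitors, rose by 1.11 (adjusted p = 7.47e-04). Tnfrsf13c, the B cell receptor for BAFF, had 7.49, 6.70 and 7.44 against 10.15, 7.31 and 9.55 and rose by 2.38 (adjusted p = 0.00829). The other B cell genes, among them Cd79a, Pax5 and Ms4a1, were not called with it. Of 18 B cell markers tested, 6 were higher and 12 lower with all arrays. Blk was the only 1 whose groups did not overlap, with 6.85, 6.68 and 6.67 against 6.91, 7.22 and 7.21.

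The diet effect in basophilic erythroblasts differed from that in proerythroblasts in 61 of 20103 genes (limma, 0.303%), with 1839 at an unadjusted p under 0.05 (9.15%), and in 695 (3.46%) without replicate 2. Among the genes named here these were Hbq1a, Hbq1b, E2f2, Afmid, Pgd, Sox4 and Utp15 with all arrays. In proerythroblasts 808 genes passed for the diet (4.02%), and the 2 comparisons share no array. Deficient proerythroblasts lay nearer the basophilic level in Alas2 and Cdk6 than adequate ones. The part of such a stage shift in the differences between the stages was not tested. E2f2, a cell cycle factor of terminal red cell divisions, had 11.35, 11.37 and 11.43 in adequate and 11.62, 11.57 and 11.90 in deficient basophilic erythroblasts, and 8.96 to 9.26 against 10.84 to 11.20 in proerythroblasts. Its diet effect was smaller in the basophilic stage by 1.58 (SE 0.20, adjusted p = 0.00876). Pgd, which rose in basophilic erythroblasts without replicate 2, fell by 0.51 (adjusted p = 0.0339) in proerythroblasts, a difference of 1.11 (SE 0.17, adjusted p = 0.0304). Utp15 likewise fell by 0.66 in proerythroblasts, and the effects differed by 1.12 (SE 0.19, adjusted p = 0.0446). Without replicate 2 the difference between stages was also past the threshold for Hadh (1.76, adjusted p = 0.00726), Plxnc1 (2.31, adjusted p = 0.00814), Ccng1 (1.48, adjusted p = 0.00726) and Selenos (1.22, adjusted p = 0.00938). With all arrays these 4 had 0.144, 0.159, 0.23 and 0.491. Selenow, lower by 1.29 in deficient proerythroblasts (adjusted p = 0.00129) and by 0.29 here, differed by 0.99 (adjusted p = 0.0485) without replicate 2 and had 0.0972 with all arrays.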

How the data were processed

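Total RNA of 12 sorted samples was hybridised to Affymetrix whole-transcript arrays. The deposited values are the authors' log2 expression values from Expression Console, per the submitters' processing notes. Background correction, normalization and genome build are not given in the sources used here, and the values were used as deposited. Of 72688 features, 31182 named 1 gene, 1535 several, 39785 none and 186 were controls, and 1099 symbols were updated through RefSeq. Of several features of a gene the brightest was used. The 20103 genes above 5.3 (the median over the whole value table) on 3 or more arrays were fitted with limma 3.58.1 (R 4.3.3) as 4 group means, with Benjamini-Hochberg adjustment over all of them. The script was tested on simulated data. The number of arrays limits the precision.

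Deviations from group means correlated at 0.72, 0.78 and 0.54 between basophilic arrays of the same number. Between proerythroblast arrays of the same number they correlated at 0.46, 0.18 and 0.52. The replicate number was therefore used as a block, but only in the alternative fits named as such. The fits of group means, with all arrays and without replicate 2, did not pair the samples. Basophilic replicates 1 and 3 also correlated across numbers (0.60 and 0.51). Each correlation of a basophilic replicate 2 array with replicate 1 or 3 of the other diet was negative (-0.76 to -0.57). The basophilic pattern thus mainly sets replicate 2 apart, and the labels do not say what same-numbered arrays share.

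Members, gene lists and rules were chosen with earlier results of these data known. Named are the genes past the threshold, the 10 next smallest p, the 15 highest and 15 lowest changes without replicate 2 among called genes whose groups of 3 do not overlap (predicted or unnamed genes left out of both), every selenoprotein, and of each list up to 4 members with the smallest p plus all called members where at most 6. Genes given to show a marker list were chosen after their values were seen.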

Additional observations from a re-analysis of the deposited data

Results flagged for a closer look

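The diet effect differed between the stages in 7 of the named genes, by limma's test of the difference itself (deficient minus adequate in basophilic erythroblasts, minus the same in proerythroblasts). The difference was -2.03 for Hbq1b and -1.88 for Hbq1a (adjusted p = 0.00509 for both), whose near-identical sequences may share signal. It was -1.58 for E2f2 (adjusted p = 0.00876) and -1.52 for Afmid (adjusted p = 0.028). It was 1.12 for Utp15 (adjusted p = 0.0446), 1.11 for Pgd (adjusted p = 0.0304) and 1.08 for Sox4 (adjusted p = 0.0463). Hbq1a, Hbq1b and E2f2 rose in deficient proerythroblasts, by 2.19, 2.25 and 1.90, and had 0.31, 0.22 and 0.31 in basophilic erythroblasts. Sox4 fell in proerythroblasts (-0.88) against 0.19 in the later stage, and Afmid had 0.54 against -0.98. Alas2 and Cdk6 lay nearer the basophilic level in deficient than in adequate proerythroblasts, and the part of this in these differences was not tested. With replicate 2 left out, the differences of these 7 genes were -1.95, -1.76, -1.53, -1.71, 1.26, 1.10 and 1.0 in the same order.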

How the results depend on the processing

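With all arrays, 2 genes were higher and 2 lower for the diet, and leaving out arrays moved these counts between 0 and 273 and between 0 and 144. Without replicate 2, the 273 and 144 moved between 40 and 125 and between 14 and 33 when another basophilic array was also left out. Higher and lower counts were 8 and 10 with the replicate block, 100 and 188 with the replicate block within each stage, 36 and 22 after quantile normalization, 1103 and 991 with array weights, a setting chosen after seeing the data, and 3 and 4 at an adjusted p of 0.1. No gene was called with the basophilic arrays only or after median centring. No filter and robust variance each gave 2 and 1, and trended variance 2 and 3. The basophilic arrays only, without replicate 2, gave 289 and 236. Without replicate 2, quantile normalization gave 530 and 328, median centring 186 and 107, and the replicate block within each stage 298 and 224. The 61 genes whose diet effect differed between the stages became 587 with the replicate block within each stage, 24 after quantile normalization, 38 with no filter and 2890 with array weights, and leaving out arrays moved them between 12 and 695. The cause of these moves was not tested. None of the 4 genes called with all arrays changed direction under these settings. Signs did change among the other named genes. Of 223, this held for 15 without deficient basophilic replicate 2, 10 with array weights and 5 without replicate 2. The number of arrays, and the higher background of replicate 2, limit what can be detected.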
